A study of Mus musculus with 6 samples.

Results

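Imprinted genes were followed here in fat of mice after duodenal-jejunal bypass (DJB), an operation that routes food past the upper small intestine. The set holds 36 genes with a known imprint in the mouse, 22 read mainly from the paternal allele, 13 read mainly from the maternal allele, and Gnas, whose allele depends on the transcript. The arrays do not read alleles, so these classes are taken from what is known of the genes and were not measured in this fat. Members were found by the gene symbol the array design gives each probe, and the probe with the highest mean signal stood for a gene. In all 33 members had such a probe, with 62 probes of the 150305 on the array, among 19192 genes named the same way. Rtl1, Nespas and Mirg had none and are only named. Of the 33, 31 passed the filter on dim probes (well above background on at least 3 arrays), and Magel2 and Phlda2 did not.

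The 3 DJB arrays and the 3 Sham arrays measured abdominal adipose tissue of C57BL/6 mice, all on a high-fat diet that began at 6 weeks of age and had lasted 12 weeks at surgery. DJB mice received a 5 cm biliopancreatic limb and a 4 cm Roux limb. Sham mice had the incision and the intestinal cuts, which were closed in place. The labels give neither the fat depot, the time after surgery, the age at collection, nor whether each array is a separate animal, so p-values measure the spread between these arrays, which may be technical. Each array has 1 colour, and a level below is the log2 of its signal over the array's 75th percentile, so levels of different probes are not compared. That percentile was 132.0 to 165.3 on DJB arrays and 175.8 to 183.7 on Sham arrays. The adipocyte genes Adipoq, Plin1, Fabp4 and Lpl were well above background on every array.

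An imprinted gene is read wholly or mainly from 1 parental copy, because DNA methylation laid down in the egg or sperm sets the copies apart. Many paternally expressed genes promote growth before and after birth and many maternally expressed ones restrain it, and they lie in clusters that share a control region. In fat, Mest and the Sfrp5 and Bmp3 genes are known for levels that follow adipose tissue expansion, and Dlk1 marks and restrains preadipocytes.

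The probe sequences behind the genes whose values carry the comparison are given first, because each level rests on the RNA that pairs with them. Probes have 60 bases, and of the mRNA probes the first 30 are shown. Coordinates are of the whole probe in the build named by the file headers, mm9. In the Mest probe, capitals mark the bases also held by a Mest probe named by accession. The Meg3 probe is in capitals throughout because an accession-named Meg3 probe has the same 60 bases.
Mest (chr6:30698279-30698338): tctgaaagacCTAAGAGCAAATGGTGCTGA
Peg10 (chr6:4709867-4709926): ttagatcacataggataagttagatcaaat
Ppp1r9a (chr6:5114866-5114925): aaaggggcctgagtatacgctgttgcaagc
Igf2 (chr7:149836673-149836709, the bases the file places): aacatgcattttctggcaaaatcaaagctt
Meg3 (chr12:110809678-110809737): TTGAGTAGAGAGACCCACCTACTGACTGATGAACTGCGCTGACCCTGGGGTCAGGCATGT
Rian (chr12:110899742-110899801): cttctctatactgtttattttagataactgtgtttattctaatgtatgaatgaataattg

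Promoters are shown for Mest, the member with the largest difference, and for Meg3, a maternally expressed RNA whose probes agreed in sign. Capitals mark the hexamer TGCCGC on either strand, which the zinc finger protein Zfp57, a guardian of imprints, binds when it is methylated. Each run is the 250 bases before a RefSeq start in GRCm38.p6.
Mest promoter (chr6:30737800-30738049, + strand): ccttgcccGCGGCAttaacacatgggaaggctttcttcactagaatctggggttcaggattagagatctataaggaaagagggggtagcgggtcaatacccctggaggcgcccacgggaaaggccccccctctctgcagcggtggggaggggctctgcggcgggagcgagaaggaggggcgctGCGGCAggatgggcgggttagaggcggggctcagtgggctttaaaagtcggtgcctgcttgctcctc
Meg3 promoter (chr12:109540746-109540995, + strand): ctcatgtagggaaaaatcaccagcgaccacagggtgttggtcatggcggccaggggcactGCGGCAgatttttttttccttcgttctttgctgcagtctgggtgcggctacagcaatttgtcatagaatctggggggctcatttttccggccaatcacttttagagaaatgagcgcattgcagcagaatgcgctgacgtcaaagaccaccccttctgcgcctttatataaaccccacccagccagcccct

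The Mest stretch holds 2 copies of the hexamer and 14 CG, and the Meg3 stretch holds 1 and 10. They were chosen because they hold it, and the 250 bases before another RefSeq start of each gene hold none, with 7 CG at Mest (chr6:30733256-30733505) and 0 at Meg3 (chr12:109545148-109545397). RefSeq windows of 300 bases matched 29 members with 44 windows. Of these, 10 (22.7%) held TGCCGC, against 11.6% of all 32851 windows, and the median number of CG was 13.5 against 7. The Mest windows from chr6:30737800 and chr6:30737803 overlap and hold the same copies, so the 10 are not all separate promoters. A match is a description of letters and no measure of binding or methylation, which these arrays do not read.

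Of the 19 paternally expressed genes tested, 3 fell and none rose in DJB fat. Among all 16166 genes tested 4.9% fell and 2.12% rose (7.02% in both directions). The fallen genes were Mest, Peg10 and Igf2. The other 16 did not pass the test, a limma fit with p-values adjusted by Benjamini-Hochberg over all 99436 probes tested, though 11 of the 19 had an unadjusted p under 0.05, as did 35.5% of all genes. Of the 19 values 15 were negative, and the median difference was -0.62, whereas over all genes 54.7% were positive and the median was 0.05. The 3 DJB arrays lay below the 3 Sham arrays for 9 of the 19 (19.7% of all genes) and above them for 1 (25.5%). The summed signal of mature adipocyte marker genes was lower on DJB arrays too, at 2344 to 3727 times the array's 75th percentile, against 4019 to 4593 on Sham arrays, and its part in these values was not tested.

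**Figure D1:**
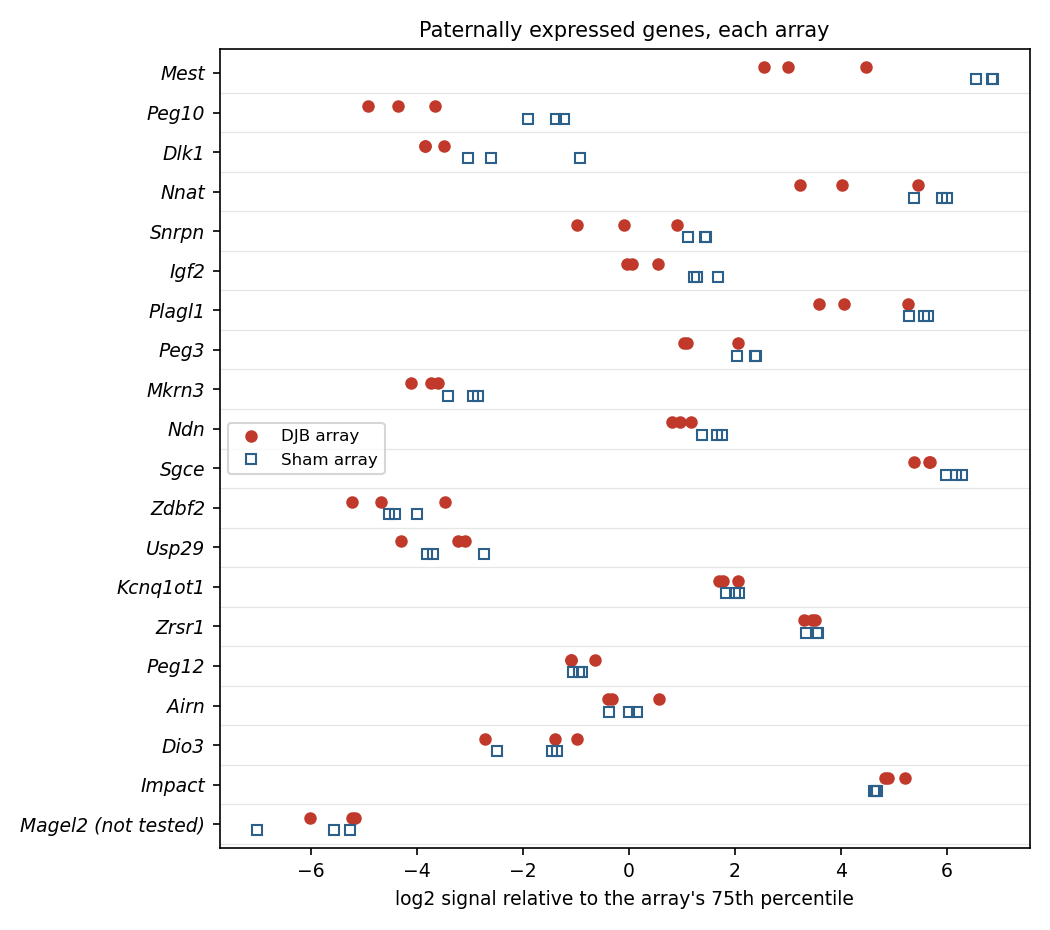
Log2 signal relative to the array's 75th percentile (x axis) of 20 paternally expressed genes (y axis, ordered by difference), with 1 point per array, DJB arrays as filled circles above and Sham arrays as open squares below. In 9 genes, Mest, Peg10 and Igf2 among them, all DJB arrays lie below the Sham arrays, and in Impact they lie above. Magel2 was not tested.

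Mest, an enzyme-like protein of the hydrolase fold that is a marker of growing fat cells, measured 2.54, 3.01 and 4.48 on DJB arrays, against 6.85, 6.54 and 6.87 on Sham arrays. No DJB array reached any Sham array, and DJB-3 came closest. The difference was -3.41 (SE 0.48, 95% interval -4.58 to -2.24, adjusted p = 0.0286), or 10.6-fold lower. On the slide holding DJB-1, DJB-2, Sham-1 and Sham-3 it was -4.08, and on the slide holding DJB-3 and Sham-2 it was -2.06. The call was lost without Sham-1 (-3.36, adjusted p = 0.121), Sham-2 (-3.52, 0.0907), DJB-1 (-3.01, 0.0552) or DJB-2 (-3.24, 0.0969).

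Peg10, a gene of retroviral origin needed for the placenta, measured -4.93, -4.36 and -3.67 on DJB arrays, against -1.90, -1.23 and -1.38 on Sham arrays. All DJB arrays lay below all Sham arrays, and 2 of the 3 DJB arrays were well above background. The difference was -2.82 (SE 0.35, interval -3.66 to -1.97, adjusted p = 0.0238), or 7.04-fold lower. Within the slides it was -3.0 and -2.44. The call was lost without Sham-1 (-3.02, adjusted p = 0.0924), Sham-2 (-2.68, 0.0834) or DJB-2 (-2.79, 0.0882). With another background correction (normexp, which adds an offset of 50 to every signal) the difference shrank to -0.75. It was still past the threshold there (adjusted p = 0.0199).

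Igf2, the insulin-like growth factor that drives fetal growth, measured 0.05, -0.04 and 0.55 on DJB arrays, against 1.68, 1.22 and 1.28 on Sham arrays. Again the groups did not overlap. The difference was -1.21 (SE 0.21, interval -1.72 to -0.70, adjusted p = 0.0392), or 2.31-fold lower, with -1.48 and -0.67 within the slides. Its call held without DJB-3 (-1.39, adjusted p = 0.0347) and was lost without any of the other 5 arrays (adjusted p = 0.0642 to 0.137). With the slide as a block Peg10 kept its call (adjusted p = 0.0314), while Mest (0.0514) and Igf2 (0.0681) did not. With no filter on dim probes all 3 calls were lost (0.0608 for Mest, 0.0503 for Peg10 and 0.0792 for Igf2), as was that of Igf2 with median scaling (0.0502).

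Plagl1, Nnat, Dlk1 and Peg3, of growth and differentiation, had negative values that did not pass the test. Plagl1, a zinc finger factor that slows the cell cycle and acts on other imprinted genes, measured 3.59, 4.06 and 5.27 on DJB arrays, against 5.64, 5.28 and 5.57 on Sham arrays (-1.19, SE 0.42, adjusted p = 0.134). Nnat, neuronatin, a small membrane protein of the endoplasmic reticulum also made in fat, measured 3.23, 4.02 and 5.45 on DJB arrays, against 6.00, 5.37 and 5.91 on Sham arrays (-1.53, SE 0.55, 0.140). For both, DJB-1 and DJB-2 were below every Sham array, while DJB-3 stood at about the lowest of them. Dlk1, the preadipocyte factor, measured -3.49, -3.86 and -3.86 on DJB arrays, against -0.93, -3.04 and -2.61 on Sham arrays (-1.54, SE 0.53, 0.129). Here it was a Sham array, Sham-1, that stood apart, and the difference was -0.91 without it and -0.39 with normexp. Peg3, a zinc finger protein tied to body size and maternal care, measured 1.03, 1.09 and 2.05 on DJB arrays, against 2.38, 2.40 and 2.03 on Sham arrays (-0.88, SE 0.30, 0.123), and the groups overlapped by DJB-3.

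Without DJB-3, 7 of the 19 paternally expressed genes fell, as did 5.13% of all genes, the added ones being Peg3 (-1.21, adjusted p = 0.0350), Plagl1 (-1.67, 0.0312), Nnat (-2.13, 0.0407) and Snrpn (-1.88, 0.0427). With any other array left out, 0 to 2 of the 19 fell. DJB-3 had the highest of the 3 DJB levels of Mest, Plagl1, Nnat, Snrpn, Igf2, Peg10, Ndn, Peg3, Mkrn3 and Usp29. For Sgce, Dlk1, Kcnq1ot1, Zrsr1 and Zdbf2, which had negative values too, another DJB array was the highest. Within the slide that holds DJB-3, the difference was -0.01 for Plagl1, 0.08 for Nnat, -0.22 for Snrpn and -0.35 for Peg3. On the other slide it was -1.78 for Plagl1, -2.33 for Nnat, -1.98 for Snrpn and -1.15 for Peg3.

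The Prader-Willi cluster of chromosome 7, whose loss from the paternal copy causes that syndrome in people, gave 4 paternally expressed genes tested. Their values were unlike, and none was called on its symbol-named probe. Snrpn, a protein of the spliceosome, measured -0.98, -0.10 and 0.90 on DJB arrays, against 1.44, 1.12 and 1.45 on Sham arrays (-1.40, SE 0.45, adjusted p = 0.115). Its paralog Snrpb makes the assignment of its signal uncertain. Ndn, necdin, a growth-restraining protein of the MAGE family, measured 0.95, 0.81 and 1.18 on DJB arrays, against 1.66, 1.38 and 1.75 on Sham arrays (-0.62, SE 0.16, 0.0716). The ubiquitin ligase Mkrn3, a brake on puberty, differed by -0.75 (SE 0.21, 0.0863), but by -0.0072 with normexp (adjusted p = 0.958). In these 3 genes no DJB array reached a Sham array, but Peg12 (0.02, SE 0.16) overlapped. Magel2 did not clear background on any array with its symbol-named probe, and its accession-named probe differed by 0.12 (SE 0.32). On accession-named probes Ndn fell in limma's fit (-0.99, SE 0.15, adjusted p = 0.0323). Mkrn3 (-0.46, SE 0.14, 0.0959) and Peg12 (-0.32, SE 0.17, 0.265) did not pass on theirs, with the groups apart for Mkrn3 and overlapping for Peg12.

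Sgce, epsilon-sarcoglycan, which shares its control region with Peg10, measured 5.37, 5.68 and 5.66 on DJB arrays, against 6.17, 5.99 and 6.29 on Sham arrays (-0.58, SE 0.14, adjusted p = 0.0679). The groups were apart, and the call missed the threshold. The paternally expressed long RNAs Kcnq1ot1 (-0.13, SE 0.14) and Airn (0.02, SE 0.29), which silence neighbours on their own copy, overlapped between groups. Overlap was also seen for Usp29 (-0.13), Zrsr1 (-0.06; its paralog Zrsr2 makes it uncertain), Dio3, the deiodinase that inactivates thyroid hormone (0.07), and Zdbf2 (-0.14), which was above background on 1 DJB array. Impact, a regulator of translation, was the 1 paternally expressed gene with all DJB arrays above Sham. It measured 4.89, 5.20 and 4.83 on DJB arrays, against 4.63, 4.65 and 4.69 on Sham arrays (0.32, SE 0.13, adjusted p = 0.178).

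Of the 11 maternally expressed genes tested, none passed limma's test in either direction (2.12% of all genes rose and 4.9% fell). An unadjusted p under 0.05 was reached by 4 of 11, namely Meg3, Rian, Igf2r and, with the opposite sign, Ppp1r9a, a share like the 35.5% of all genes. Of the 11 values 9 were positive, with a median of 0.33. The 3 DJB arrays lay above the 3 Sham arrays for 4 genes (25.5% of all genes) and below them for 1 (19.7%).

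**Figure D2:**
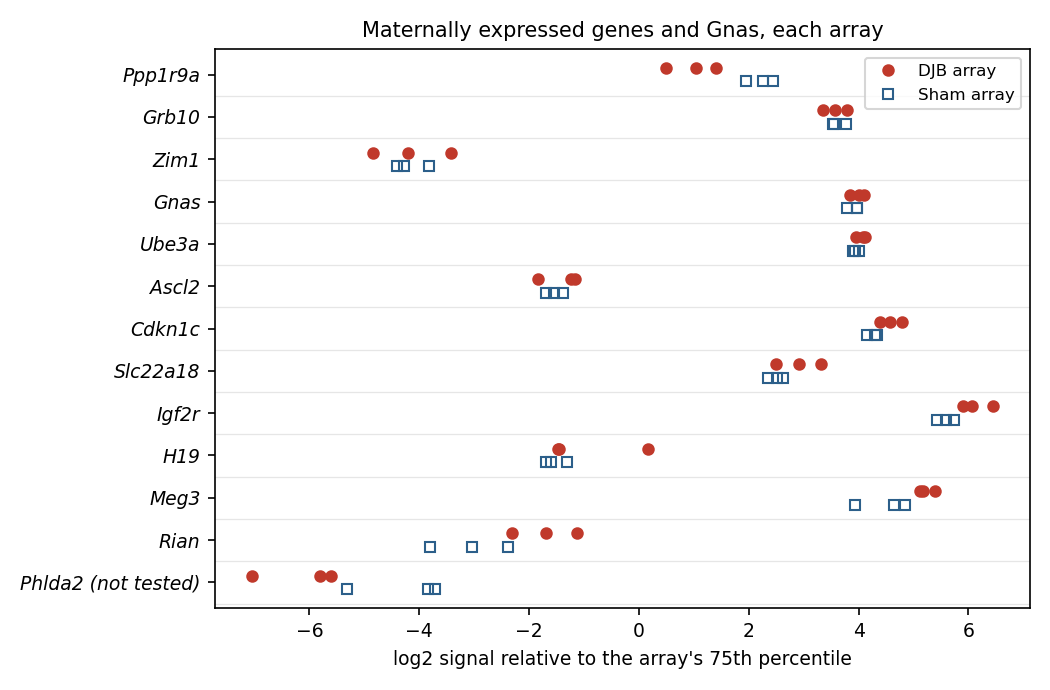
Log2 signal relative to the array's 75th percentile (x axis) of 12 maternally expressed genes and Gnas (y axis, ordered by difference), with 1 point per array, DJB arrays as filled circles above and Sham arrays as open squares below. Cdkn1c, Igf2r, Meg3 and Rian have all DJB arrays above the Sham arrays and Ppp1r9a has them below, while 1 DJB array of H19 stands far from the others. Phlda2 was not tested.

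Meg3, a long non-coding RNA of the Dlk1 cluster, measured 5.40, 5.17 and 5.12 on DJB arrays, against 3.93, 4.84 and 4.64 on Sham arrays (0.76, SE 0.25, interval 0.15 to 1.36, adjusted p = 0.118). Rian, its neighbour and the host of small nucleolar RNAs, measured -1.12, -1.70 and -2.32 on DJB arrays, against -3.80, -2.38 and -3.05 on Sham arrays (1.36, SE 0.44, interval 0.30 to 2.43, 0.113). Both were higher on every DJB array, Rian by little on the second slide, where the difference was 0.06 against 2.01 on the first. For Meg3 these were 0.29 and 0.99. With normexp the Rian difference was 0.66 and passed the test (adjusted p = 0.0424), and without Sham-1 that of Meg3 was 0.49.

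Igf2r, the receptor that carries the Igf2 protein to lysosomes for breakdown, measured 6.44, 6.06 and 5.90 on DJB arrays, against 5.42, 5.60 and 5.74 on Sham arrays (0.55, SE 0.18, adjusted p = 0.112). The groups were apart by a small gap, and the difference was 0.67 on the first slide and 0.30 on the second. Cdkn1c, an inhibitor of cyclin-dependent kinases, measured 4.40, 4.78 and 4.58 on DJB arrays, against 4.34, 4.29 and 4.15 on Sham arrays (0.33, SE 0.14, 0.185). H19, the non-coding RNA beside Igf2, measured 0.17, -1.46 and -1.47 on DJB arrays, against -1.70, -1.60 and -1.32 on Sham arrays (0.62, SE 0.46, 0.412). Its positive value came from DJB-1, and without that array it was 0.08.

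Ppp1r9a, neurabin, an actin-binding scaffold, went the other way, with 0.50, 1.04 and 1.40 on DJB arrays, against 2.26, 1.95 and 2.44 on Sham arrays. The groups were apart, and the difference was -1.24 (SE 0.26, interval -1.86 to -0.62, adjusted p = 0.0502), just outside the threshold. It passed in several alternatives, among them quantile normalization (adjusted p = 0.0492), and was -1.58 and -0.56 within the slides. On the probes that stand for them, the transporter Slc22a18 (0.41, SE 0.22), the adaptor Grb10 that dampens insulin signalling (-0.05) and the ubiquitin ligase Ube3a (0.11) overlapped. So did Zim1 (0.01), the placental factor Ascl2 (0.12) and Gnas, the stimulatory G protein alpha subunit (0.07, SE 0.12). On another probe each of Slc22a18 (0.65, SE 0.20), Ube3a (0.19, SE 0.12) and Grb10 (-0.21, SE 0.10) the groups were apart without a call. Their remaining tested probes named by symbol or accession overlapped. The probe of Phlda2, a restrainer of placental growth, was not well above background on any DJB array and was so on 2 of 3 Sham arrays, at least 1.39-fold lower in DJB. An accession-named Phlda2 probe was above background on every array and differed by -0.69 (SE 0.35, adjusted p = 0.254).

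**Figure D3:**
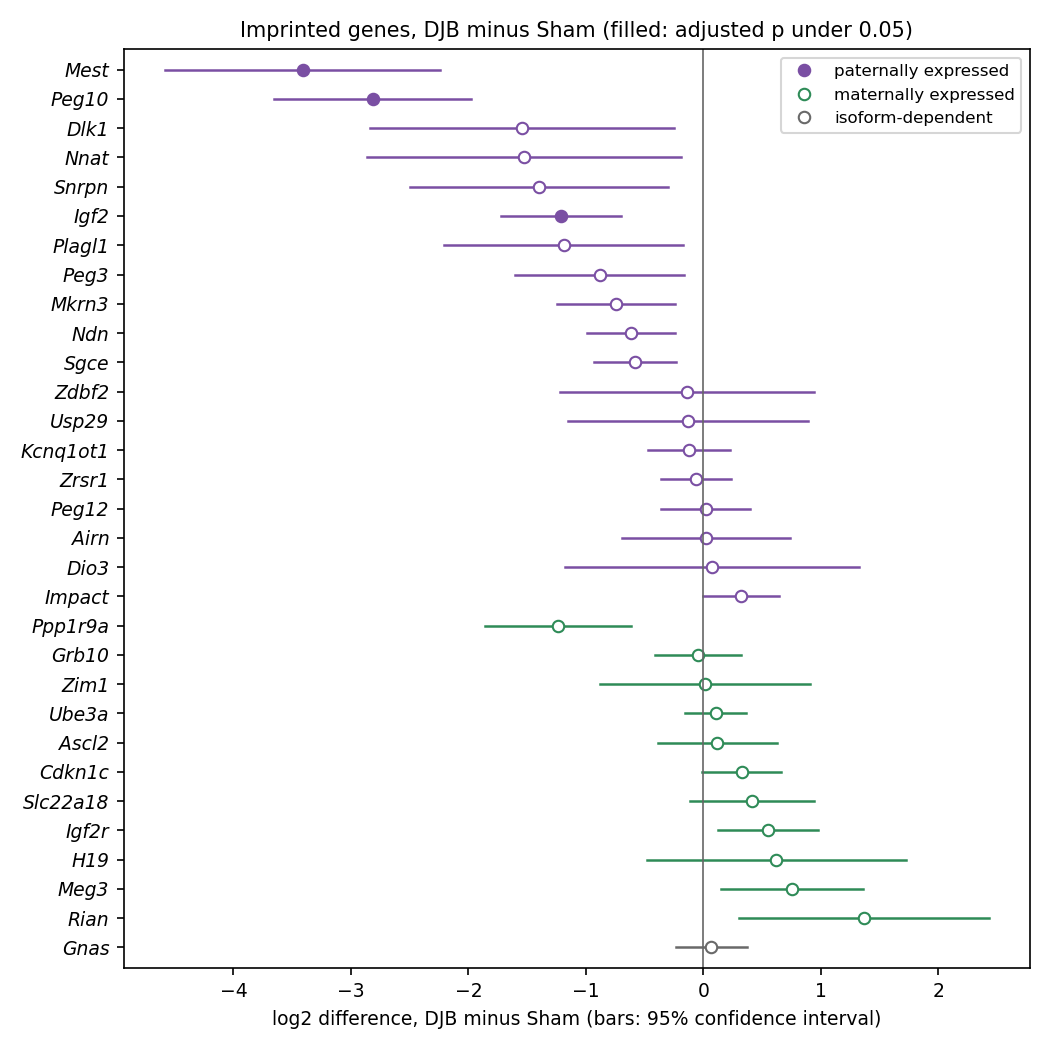
Log2 difference, DJB minus Sham (x axis), of 31 tested imprinted genes (y axis), with bars for the 95% confidence interval and filled circles for an adjusted p under 0.05. Paternally expressed genes lie mostly left of 0 and include the 3 filled circles, Mest (-3.41), Peg10 (-2.82) and Igf2 (-1.21). Maternally expressed genes lie mostly right of 0, except for Ppp1r9a (-1.24), and none is filled.

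The direction of the paternal group was kept under each of the 16 alternatives, with 13 to 17 negative values and a median of -0.71 to -0.39. In the maternal group 8 to 10 values were positive and the median ran from 0.09 to 0.43 on the symbol-named probes. With median scaling, which moves the median of all genes to 0.15, the medians were -0.51 and 0.43. Whether the groups of paternally and maternally expressed genes differ from each other was not tested.

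Several clusters hold members of both parental origins, and all values given for them here are log2 differences. On chromosome 12, paternally expressed Dlk1 (chr12:109452485-109463336) differed by -1.54 and Dio3 (chr12:110279230-110281097) by 0.07, and maternally expressed Meg3 (chr12:109540996-109571729) by 0.76 and Rian (chr12:109603945-109661716) by 1.36. On chromosome 7, Igf2 (chr7:142650768-142666816) differed by -1.21 and H19 (chr7:142575530-142578146) by 0.62. On chromosome 6, Sgce (chr6:4674350-4747204) differed by -0.58, Peg10 (chr6:4747306-4760517) by -2.82 and maternally expressed Ppp1r9a (chr6:4902872-5165661) by -1.24. All 3 of these chromosome 6 members were negative, but other maternally expressed genes of that cluster were not all so, with Asb4 at 1.04 (called higher), Pon2 at 0.43, Tfpi2 at 0.04 and Pon3 at -0.17. Of the members in these pairs and clusters, Peg10 and Igf2 passed the test. In these coordinates, of GRCm38.p6, Airn (chr17:12741311-12859884) overlaps Igf2r (chr17:12682406-12769706) on the other strand, and the sources used here do not say whether labelling kept the strand.

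A second kind of probe, named by accession and not by symbol, covered some of the same genes. Of 29 such probes 27 were tested. Both kinds were present for 28 members and tested for 25. By class, 11 of 16 paternal values were negative on these probes (median -0.52), and 6 of 11 maternal values were negative and 5 positive (median -0.03), so the mostly positive maternal values were not seen on them. In the pairs the signs matched for 19 and were opposite for 6, and the median gap between the paired differences was 0.10. Mest (-3.33, adjusted p = 0.0305), Peg10 (-2.75, 0.0109) and Ndn (-0.99, 0.0323) fell on these probes, as did Ppp1r9a (-1.18, 0.0453), while 3.15% of all probes fell and 1.84% rose. Igf2 did not pass (-1.08, 0.0530). The Mest pair shares 50 bases, the Meg3 pair 60, the Sgce pair 51 and the Dio3 pair 49, so those readings are not separate. Shorter runs are shared by the Peg3 pair (18 bases) and the Igf2r pair (12 bases). All of these pairs are among the 19 with matching signs, so part of that count is not independent. The Peg10, Ndn and Ppp1r9a pairs share no run of 12 bases or more.

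**Figure D4:**
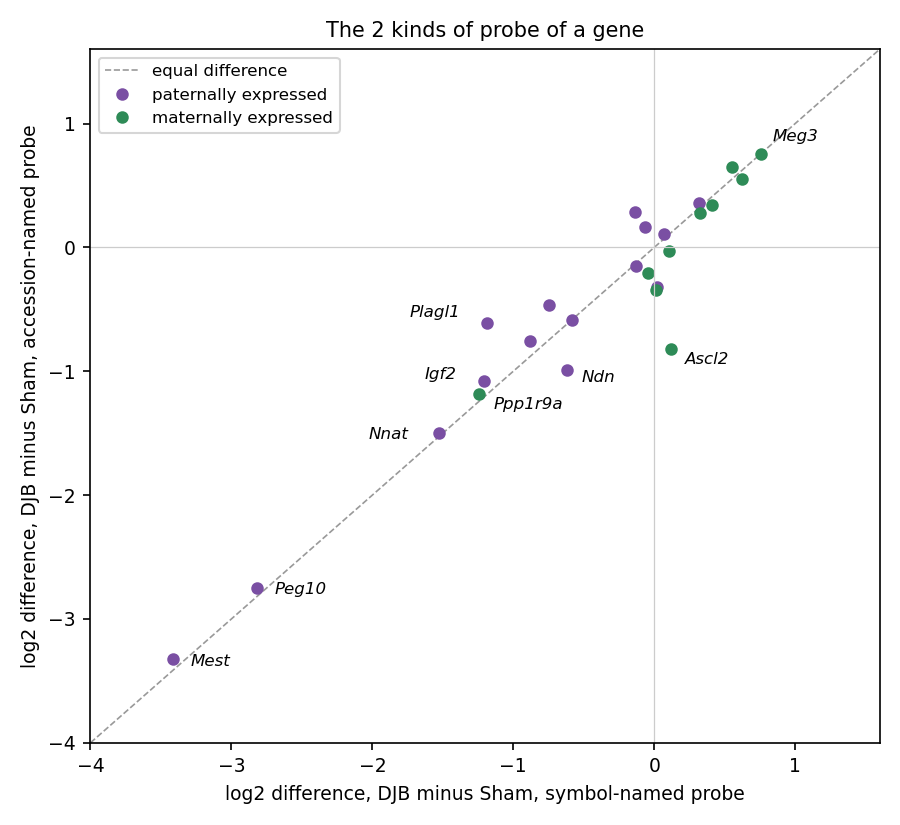
Log2 difference, DJB minus Sham, on the symbol-named probe (x axis) and on the accession-named probe (y axis) of 25 imprinted genes, 1 point per gene, with a dashed line of equal differences. Mest and Peg10 lie close to the line at the lower left, and Ascl2 (0.12 and -0.82) lies farthest from it. In some pairs, Mest among them, the probes share bases and are not separate readings.

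Several members had more than 1 symbol-named probe. The 5 Meg3 probes ranged from 0.68 to 0.97, with none called. Of 4 Ppp1r9a probes 2 fell (-1.14, adjusted p = 0.0463 and -1.14, 0.0492) and the one that was above background on 1 DJB array read -0.57. The second Igf2 probe fell by 1.16 (adjusted p = 0.0471). The array also has probes named by a genomic interval, and read as GRCm38 coordinates 42 of them lay on the strand of 11 members. Of 36 tested none passed (3.84% of all interval-named probes did). Those of Igf2r read 0.61 to 0.88 (7 probes), of Meg3 0.42 to 0.63 (6 probes) and of Rian 0.09 to 0.96 (7 probes), while the median of all interval-named probes was 0.15. Some of these intervals overlap, so their probes are not all separate readings. The other tested ones read -1.30 and -0.31 for Nnat, -0.93 for Plagl1, -0.19 for Grb10, 0.28 for Ube3a, 0.41 for Magel2 and -0.10 to 0.16 for Gnas (10 probes).

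Other imprinted genes were mostly not called. Of 7 other paternally expressed genes tested none passed limma's test, and 6 were negative (median -0.78). An unadjusted p under 0.05 in limma's fit was reached by 4, against 35.5% of all genes. Snurf, encoded by the same transcript as Snrpn, differed by -1.18 (SE 0.34, adjusted p = 0.0914), Sfmbt2 by -0.78 (SE 0.22, 0.0909), Nap1l5 by -0.87 (0.165) and Slc38a4, an amino acid transporter, by -1.86 (SE 1.06, 0.300). Of 19 other maternally expressed genes 1 rose and 1 fell, against 2.12% and 4.9% of all genes. Of these 19 values 9 were positive and 10 negative (median -0.04), so the mostly positive values of the maternal members were not seen here. The DJB arrays lay all above Sham for 3 (25.5% of all genes) and all below for 6 (19.7%). The largest differences without a call were those of Slc22a2 (-2.55, SE 0.54, adjusted p = 0.0518) and Slc22a3 (-1.56, SE 0.45, 0.0909). In both, all DJB arrays lay below Sham. Klf14, a transcription factor of fat beside Mest, fell, with -2.48, -1.61 and -0.42 on DJB arrays, against 1.38, 1.13 and 1.25 on Sham arrays (-2.76, SE 0.49, 0.0406). Asb4, in the Peg10 cluster, rose, with 2.43, 2.60 and 1.95 on DJB arrays, against 1.14, 1.36 and 1.35 on Sham arrays (1.04, SE 0.19, 0.0420). In both genes the groups did not overlap, and both calls held without DJB-3 and were lost without any other array (adjusted p = 0.0601 to 0.147 for Klf14 and 0.0746 to 0.151 for Asb4). With the slide as a block the adjusted p was 0.0616 for Klf14 and 0.0669 for Asb4.

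Of 15 genes that write, erase or guard methylation imprints, 1 rose (2.12% of all genes rose). Dnmt1, which copies methylation after DNA replication, measured 1.80, 1.57 and 1.75 on DJB arrays, against 0.88, 1.01 and 1.19 on Sham arrays (0.69, SE 0.13, adjusted p = 0.0456). That call was lost without any 1 of the 6 arrays (adjusted p = 0.0620 to 0.156) with the slide as a block (0.0765) and with median scaling (0.0508). Its partner Uhrf1 (0.23, 0.264) did not pass, and neither did Zfp57 (-0.39, 0.506) or Trim28 (0.23, 0.281). The 3 genes known to move with fat expansion did not pass either. No DJB array reached a Sham array in any of them, and 19.7% of all genes had all DJB arrays below Sham. Sfrp5 differed by -2.29 (SE 0.59, 0.0734), Bmp3 by -2.17 (SE 0.60, 0.0852) and Npr3 by -2.34 (SE 0.56, 0.0645), and in all 3 DJB-3 had the highest of the DJB levels.

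Markers of the cells in fat moved with the groups too, and in bulk tissue fewer cells of a type and less RNA per cell cannot be told apart. The summed signal of 12 mature adipocyte genes, in units of the array's 75th percentile, was 2344, 3512 and 3727 on DJB arrays, against 4593, 4019 and 4423 on Sham arrays, with 11 of 12 negative and Retn called lower. The 10 mesothelial genes tested, of the sheet that covers the organs, summed to 26.7, 23.8 and 67.6 on DJB arrays, against 179, 150 and 105 on Sham arrays. All 10 were negative, and Krt19 and Rspo1 fell (4.9% of all genes fell). Such sums are weighted by the brightest probes, on Sham-1 those of Krt18, Rspo1 and Krt8. The groups overlapped for Krt8 and Krt18, and Wt1 differed by -0.39 (SE 0.35). The DJB-3 array was the nearest to Sham in both lists.

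Of 7 macrophage genes Cd68, Itgam and Lyz2 rose, while of all genes 2.12% rose and 4.9% fell. The macrophage sums were 666 to 801 on DJB arrays and 367 to 548 on Sham arrays. Progenitor and fibroblast genes summed to 2025 to 2196 on DJB arrays and 1501 to 1912 on Sham arrays, with 0 of 11 called. In limma's fit 4 of them had an unadjusted p under 0.05, as did 35.5% of all genes. Skeletal muscle genes summed to 2.13 to 2.75 on DJB arrays and 11.2 to 22.5 on Sham arrays, with 4 of 10 lower and Pvalb not well above background on any DJB array. The endothelial sums were 48.0 to 72.0 on DJB arrays and 81.6 to 93.6 on Sham arrays, with Kdr called lower among 6 genes. Pancreas sums (8.45 to 11.1 on DJB arrays and 9.92 to 18.1 on Sham arrays) and liver sums (6.05 to 20.6 on DJB arrays and 4.44 to 7.02 on Sham arrays) overlapped, with Hpx, of the liver list, called lower. The liver sums rest mostly on Ahsg, the only tested gene of that list with levels above 0. It measured 2.40, 4.30 and 3.70 on DJB arrays, against 1.63, 2.42 and 2.60 on Sham arrays. The part of these cell types in the imprinted gene values was not tested.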

How the data were processed

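RNA of 6 mouse adipose samples was hybridised to 1-colour Agilent arrays. Per the file headers, the authors quantified the scans with Agilent Feature Extraction 12.0.3.1 (protocol GE1_1200_Jun14), giving a processed intensity per spot, background-subtracted and detrended on a linear scale. A table of log2 values that the authors deposited served only as an alternative. The submitters' processing notes name limma.

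The log2 intensity minus each array's 75th percentile was fitted with limma 3.58.1 in R 4.3.3 (lmFit, eBayes, a two-sided test without covariates, with 2.26 prior degrees of freedom) over 99436 probes well above background on at least 3 of 6 arrays. P-values were adjusted by Benjamini-Hochberg over those probes, with a threshold of 0.05. Spots flagged as outlying, 18 to 25 on an array, were left out, none of them of a member. Every difference is DJB minus Sham. Where a group had no array well above background, the fold is a lower bound. It sets the brighter group's mean against a floor taken on each array, the dimmest signal that passed the background test there or the probe's own signal if that was higher. Tables were handled with the data.table package (version 1.17.8), pandas 2.3.3 and Python 3.11.15. The fit was tested on simulated data.

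The 3 arrays per group limit the precision, and an exact permutation test of 3 against 3 cannot go below 0.1. All members were named. Of the other imprinted, maintenance and fat expansion lists, called genes and a few others were named, some of them after their values were seen. In the maintenance list the others named were not all those with the largest differences. The result of 1 marker list is not reported here. Members and lists were chosen with earlier results of these data known. Replicate numbers were not used to pair the arrays. Correlations of deviations from the group mean were -0.185, -0.117 and -0.295 between same-numbered arrays. Between the other DJB and Sham arrays they were -0.153 to 0.248. With 3 arrays per group these values depend on one another and cannot exclude a pairing. Alternatives covered background correction, scaling, filters, prior, slide, replicate number, probe choice and each array left out.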

Additional observations from a re-analysis of the deposited data

How the results depend on the processing

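Of 493 recomputed member values 433 kept their direction and side of the threshold, 21 lost a call, 16 gained one and 23 turned direction, the last in 9 genes whose difference was at most 0.14 in size. The 1135 genes called became 2606 with normexp background correction, 148 with no filter on dim probes, 2618 with a trended robust prior, 173 with the slide as a block and 0 with the replicate block. The 3 paternally expressed calls became 5 with normexp, 0 with no filter, 5 with the trended prior, 1 with the slide block and 0 with the replicate block. The 0 maternally expressed calls became 2 with normexp, 1 with quantile normalization, 1 with the deposited table, 1 with all arrays above background and 1 with the trended prior. The 3 calls in the other imprinted, maintenance and fat expansion lists became 11 with normexp, 0 with no filter, 6 with all arrays above background, 6 with the trended prior, 0 with the slide block and 0 with the replicate block. Leaving out 1 array gave 33 to 959 genes (without DJB-1 196, DJB-2 44 and DJB-3 959, and without Sham-1 33, Sham-2 83 and Sham-3 909), 0 to 7 paternal, 0 to 1 maternal and 0 to 7 other calls. The cause of these changes was not tested, beyond the fewer samples or other probes that each setting holds.

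Usp29 turned to 0.13 with normexp, Zrsr1 to 0.042 and Grb10 to 0.060 with median scaling. Zdbf2 turned to 0.17 with normexp, 0.028 with quantile normalization and 0.025 with the deposited table. With 1 array left out, values ran from -0.13 to 0.093 for Peg12, -0.35 to 0.25 for Usp29, -0.29 to 0.19 for Airn, -0.29 to 0.58 for Dio3, -0.63 to 0.25 for Zdbf2, -0.16 to 0.062 for Grb10, -0.36 to 0.35 for Zim1 and -0.0058 to 0.33 for Ascl2. The labels do not say whether same-numbered arrays belong together, so what the replicate block's loss of calls means cannot be told. Weak signal limited Peg10, Zdbf2 and Zim1, which were not above background on every array.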
